A study of Mus musculus with 3 samples.

Results

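Conventional type 1 dendritic cells (cDC1) were examined in lavage cells of mice with bleomycin-injured lungs, across 3 droplet libraries that sequence the 3′ ends of transcripts. Cells were selected on their own UMI counts: a cell was taken as a cDC1 when it held at least 3 UMIs (unique molecular identifiers, each marking 1 counted transcript) summed over Xcr1, Clnk, Tlr3, Cadm1, Naaa and Itgae, with Lyz2 below 0.5% of its UMIs. It also had to hold at most 1 UMI summed over the migratory-cell genes Ccr7, Fscn1 and Ccl22 and 0 UMIs over Cd3d, Cd3e, Cd3g and Cd79a. The rule found 2213 of the 42888 cells kept. All mice had received bleomycin into the airways, and lavage was taken 14 days later. The WT DMSO library came from wild-type mice, the WT GW5074 library from wild-type mice given GW5074, a small-molecule kinase inhibitor, and the KO DMSO library from Clec7a knockout mice. The labels of the WT DMSO and KO DMSO libraries name DMSO, the solvent. Clec7a encodes Dectin-1, the β-glucan receptor. Fluid of the mice of a group was pooled and cells were sorted by CD11b or CD11c, so each group is 1 library, the number of mice is not given in the sources used here, and no test between groups was possible. Intervals are 95% intervals of counting error only.

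The cDC1 lineage depends on the transcription factors IRF8 and BATF3 and on the growth factor receptor FLT3. Its cells take up dead-cell material, with CLEC9A as a receptor for exposed actin, and present its antigens on MHC class I to CD8 T cells, a process called cross-presentation that uses WDFY4. In the lung most of them carry the integrin αE (Itgae, CD103) and lie at the airway epithelium, and XCR1 lets them respond to the chemokine XCL1 released by activated T and NK cells.

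The libraries held 34859676 to 45462817 UMIs over 11678 to 17809 barcodes. cDC1 numbered 703 in the WT DMSO library, 881 in the WT GW5074 library and 629 in the KO DMSO library, with median depths of 4234, 2369 and 3448 UMIs a cell and summed depths of 3019482, 2179734 and 2143840 UMIs. They made up 5.23% (4.86 to 5.61) of kept cells with DMSO in WT, 4.95% (4.64 to 5.28) with GW5074 and 5.4% (5.0 to 5.83) in the KO. The log2 ratio of these shares was −0.08 (−0.22 to 0.07) for GW5074 over DMSO and 0.05 (−0.11 to 0.21) for KO over WT, so the 3 shares overlapped within counting error. A share depends on what else the sort collected. Among cells low in Lyz2 and without neutrophil UMIs, cDC1 were 11.9%, 17.4% and 18.3%, and after thinning every cell to 1000 UMIs they were 4.18%, 4.07% and 3.47% of cells. Between pairs of libraries 80 to 154 cell barcodes were shared, and 0 of these belonged to a cDC1 in both.

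The label was checked with genes the rule did not use, given here as a description. Levels are counts scaled to the summed UMIs of the cell set (CPM), which 3′ counting makes independent of transcript length. Clec9a stood at 244, 254 and 231 CPM in the WT DMSO, WT GW5074 and KO DMSO cDC1, in that order here and below. Irf8 stood at 1241, 1565 and 1289.7 CPM, Wdfy4 at 1923, 2348 and 2046 CPM, and Batf3 at 157, 160 and 139 CPM. Each library's cDC1 was set against 4 other cell sets of the same library, namely cDC2, mature dendritic cells, resident alveolar macrophages and T cells. The cDC2 and resident alveolar macrophage sets left out cells that reached the marker minimum of the cDC1 rule. The contrasts with these sets are therefore partly built in, also for genes the rule did not use. The septin gene Sept3 led, at 391, 428 and 384 CPM, at least 11.6 times its level in any of those sets in every library. Clec9a followed with a lowest ratio of 9.09, then the interferon-inducible PYHIN gene Ifi205 (8.17) and Gcsam (8.10). The lysosomal thioesterase Ppt1 (4.91), Wdfy4 (4.75), Rab7b (4.59), Ifi211 (4.29) and Irf8 (3.94) were also among the 20 leading genes, of which 6 are the genes of the rule itself. Batf3 was not set apart this way, since mature dendritic cells held 313, 309 and 326 CPM. The label was kept on this description, which is no independent test of it.

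**Figure D1:**
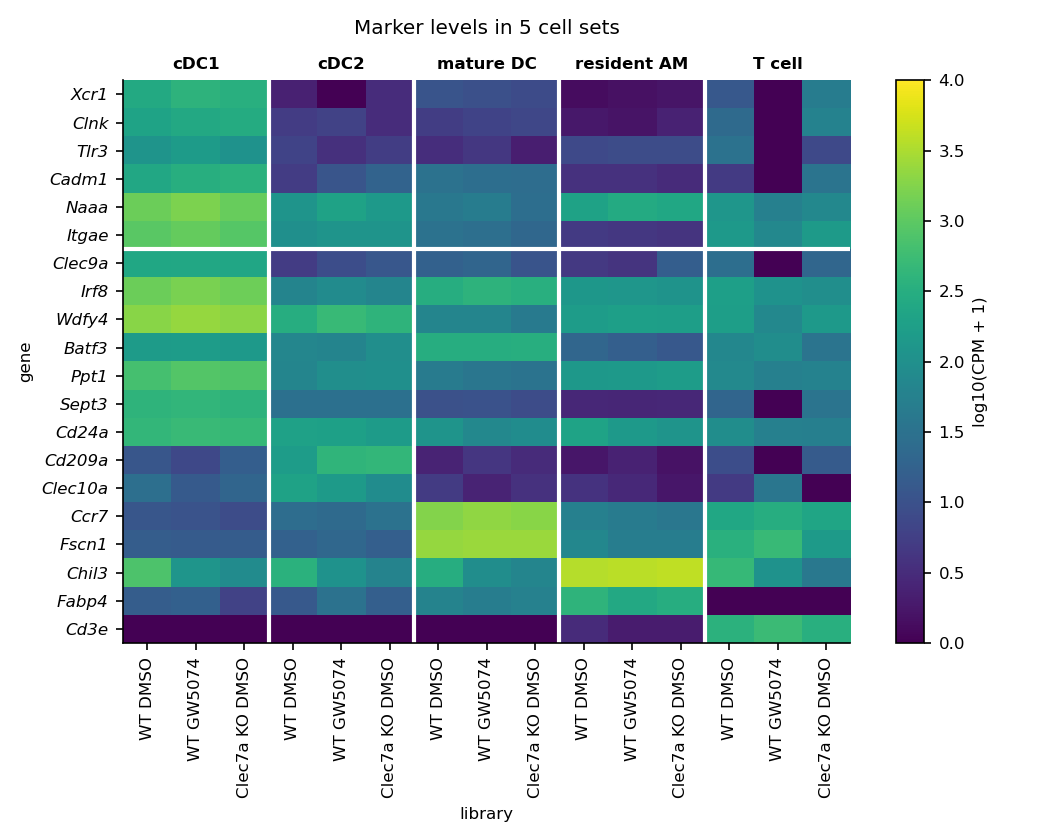
Heat map of marker levels as log10(CPM + 1), with genes in rows and the 3 libraries of each of 5 cell sets in columns. The 6 genes above the white line chose the cDC1, and below it Clec9a (231 to 254 CPM), Irf8, Wdfy4, Ppt1 and Sept3 are brightest in the cDC1 columns, while Batf3 is brightest in mature dendritic cells (mature DC, 309 to 326 CPM). The Chil3 row shows the WT DMSO cDC1 brighter than the other 2 cDC1 columns.

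The promoters of Ifi205 and Ifi211 are shown because these neighbouring paralogs on chromosome 1 were among the leading cDC1 genes and because both hold the core of the interferon-stimulated response element, which is GAAA, any 2 bases and GAAA again, searched on both strands and printed in capitals. The sequences run from 250 bases before to 50 after the annotated start (RefSeq, GRCm38.p6, the mm10 build), at chr1:174031706-174032005 and chr1:173912997-173913296, both on the minus strand.
Ifi205: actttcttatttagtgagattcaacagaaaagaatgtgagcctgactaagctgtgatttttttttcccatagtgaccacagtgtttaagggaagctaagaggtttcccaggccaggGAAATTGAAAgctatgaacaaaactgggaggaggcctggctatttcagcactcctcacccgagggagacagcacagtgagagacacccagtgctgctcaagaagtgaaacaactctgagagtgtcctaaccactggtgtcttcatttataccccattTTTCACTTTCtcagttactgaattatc
Ifi211: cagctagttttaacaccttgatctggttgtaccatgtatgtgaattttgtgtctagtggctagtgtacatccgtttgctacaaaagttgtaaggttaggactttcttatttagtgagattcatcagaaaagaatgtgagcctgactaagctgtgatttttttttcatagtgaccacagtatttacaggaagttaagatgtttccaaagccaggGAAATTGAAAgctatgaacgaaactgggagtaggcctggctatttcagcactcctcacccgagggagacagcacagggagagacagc
The matches lie 134 bases upstream and 23 downstream of the Ifi205 start and 37 upstream of the Ifi211 start, and the longest run of letters that both promoters share is 45 bases. Of 32851 mouse promoters in the table, 3.44% hold this core. Among the 20 leading genes, 14 had a promoter there, and these 2 were the ones with a match. Ifi205 stood at 314, 296 and 452 CPM and Ifi211 at 112, 120 and 212 CPM. Counts of such close copies are uncertain, since reads can be split between them.

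The rule's lower edge took in cells of another kind, above all in the WT DMSO library. Cells with exactly 3 marker UMIs numbered 64, 81 and 42, and 50%, 48.1% and 52.4% of them also held at least 3 UMIs summed over Clec9a, Irf8, Wdfy4, Ppt1 and Sept3. Just outside, cells with 2 marker UMIs numbered 193, 102 and 75, and 18.7%, 22.5% and 36.0% of them did so. At 8 or more marker UMIs, 99.4%, 99.6% and 100% did. The cells that met this second condition are called core cDC1 below. They numbered 617, 810 and 589, or 87.8%, 91.9% and 93.6% of cDC1, and were set apart after the data had been seen. In the 86 WT DMSO cells outside the core, Clec9a (10.3 CPM) and Irf8 (54.8 CPM) were low by the way the core was chosen. Genes not used in that choice were the alveolar macrophage chitinase-like gene Chil3 at 4764 CPM, the neutrophil gene S100a8 at 1289 CPM and the macrophage enzyme gene Arg1 at 758 CPM. Cells outside the core held Chil3 at 269 CPM, S100a8 at 530 CPM and Arg1 at 53.8 CPM with GW5074. In the KO they held 152, 233 and 0 CPM. Values in core cells are therefore given where the call of a named gene differs.

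Markers of other cells were not even across the libraries. The 10 neutrophil markers summed to 1118, 224 and 156 CPM in cDC1, and to 1003, 165 and 138 CPM in core cDC1. The 12 resident alveolar macrophage markers summed to 1849, 857 and 798 CPM, and to 1303, 818 and 777 CPM in the core. Chil3 gave 756, 122 and 83.5 CPM of the sums in cDC1, so most of each came from other members, Plet1 among them. Which of these genes cDC1 themselves express was not tested. The share of cDC1 with more than 1 UMI of macrophage or neutrophil markers was 47.9%, 13.7% and 14.0%. In core cells it was 43.9%, 11.5% and 11.7%, so the choice of the core did not remove such cells. These shares were counted without thinning, at unequal depths. Outside the cDC1, the T cells of the same libraries held S100a8 at 1089, 238 and 191 CPM. The 12 monocyte-derived macrophage markers summed to 1357, 1223 and 781 CPM, and to 708, 1053 and 614 CPM in the core, where the GW5074 library and not WT DMSO was highest. With GW5074, 2 of 11 compared were higher and 3 lower (median 0.03), and in the core 4 of 9 were higher and 0 lower (median 0.54). The 8 monocyte markers summed to 502, 489 and 381 CPM. The 8 cDC2 markers, which include Ccl17, summed to 1049.9, 747 and 1394 CPM, with Clec4a4 at 0 in all 3. The 10 markers of mature dendritic cells summed to 156, 124 and 118 CPM, the 8 plasmacytoid ones to 220.2, 249 and 264 CPM, the 8 B cell ones to 45.4, 53.7 and 33.6 CPM, the 12 T and NK cell ones to 10.3, 12.4 and 8.86 CPM, and the 5 mast cell ones to 0.

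Clec7a itself (mm10 chromosome 6, 129461591 to 129472779, minus strand) was examined first in the knockout. In cDC1 it stood at 77.2, 61.0 and 3.27 CPM, from 233, 133 and 7 UMIs. The KO level was lower by a log2 ratio of −4.56 (−5.89 to −3.50), as the label of that library asks. The exons removed in these mice are not given in the sources used here. A Clec7a UMI was found in 17.8%, 11.8% and 1.11% of cDC1, and in 6.24%, 5.96% and 0.162% after thinning to 1000 UMIs. T cells, which should lack the receptor, showed 6.86%, 15% and 0% after thinning, at median depths of 1706.5, 1135.5 and 1360.0 UMIs before it, from 102, 20 and 65 cells. Their CPM was 95.9, 165 and 0, while cDC2 held 254 and 363 CPM and resident alveolar macrophages 742 and 850 CPM in the 2 WT libraries. The intervals of the T cell shares were wide, 2.80% to 13.6% in WT DMSO and 3.21% to 37.9% with GW5074. The Clec7a of cDC1 was thus not above the level in these few T cells and is not read as expression by cDC1. Doublets were not called among the T cells, so the comparison cannot decide whether cDC1 express it.

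Levels in cDC1 were then compared for GW5074 over DMSO in WT mice and for KO over WT under DMSO. Both comparisons use the same WT DMSO library, so a value particular to that library enters both. A gene was compared when either library reached 20 CPM and both together held 50 UMIs, and it is called higher or lower when the ratio was at least 1.5-fold with a counting interval that leaves out 1. With GW5074, 123 genes of 6388 were higher (1.93%) and 207 lower (3.24%). In core cells 140 were higher (2.22%) and 158 lower (2.51%). In the KO, 243 genes of 6342 were higher (3.83%) and 783 lower (12.3%), and in core cells 272 were higher (4.39%) and 670 lower (10.8%). Scaling by the median ratio over genes in place of total UMIs gave 336 higher and 613 lower in the KO. The median log2 ratio over all compared genes was 0.01 with GW5074 and −0.11 in the KO. Lists below are read against these shares and medians.

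The genes that name the lineage mostly stayed within 1.5-fold. Of 23 compared identity genes, Cd36 was higher and Nfil3 lower with GW5074. Ratios above 1 were found for 21 of the 23, with a median log2 ratio of 0.21, against 0.01 over all compared genes. Of 24 compared in the KO, 2 were higher and 2 lower, 16 had ratios above 1 and the median was 0.08. The largest difference among them was in Cd207, which encodes langerin, the C-type lectin known from Langerhans cells and from CD103+ lung dendritic cells. Cd207 stood at 4.31, 10.1 and 43.8 CPM, from 13, 22 and 94 UMIs in 12, 18 and 71 cells. KO cDC1 were above both WT libraries, with a log2 ratio of 3.35 (2.50 to 4.31) over WT DMSO, 3.21 in core cells, and 2.12 (1.44 to 2.86) over WT GW5074. After thinning, a Cd207 UMI was in 0.726%, 0.702% and 3.88% of cDC1, against at most 0.0268% of resident alveolar macrophages, whose median depths were 3865.5, 2652 and 3075 UMIs. The lipid scavenger receptor gene Cd36 stood at 107, 187 and 164 CPM. It was higher with GW5074 (0.80, 0.59 to 1.02) and in the KO (0.62, 0.40 to 0.84), and in core cells the KO value of 0.47 was no longer past the rule. Sema4a, a semaphorin that binds T cells, stood at 146, 162 and 87.7 CPM and was lower in the KO (−0.74, −0.99 to −0.49). Nfil3, a transcription factor gene of early cDC1 development, stood at 20.5, 6.42 and 6.53 CPM and was lower in both, with too few UMIs to be called in core cells.

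The Cd207 promoter (RefSeq, GRCm38.p6, chr6:83677808-83678107, minus strand) is shown because its gene had the largest KO ratio of the identity genes. Capitals mark the AP-1 motif TGANTCA, which reads alike on both strands, 7 bases upstream of the start.
Cd207: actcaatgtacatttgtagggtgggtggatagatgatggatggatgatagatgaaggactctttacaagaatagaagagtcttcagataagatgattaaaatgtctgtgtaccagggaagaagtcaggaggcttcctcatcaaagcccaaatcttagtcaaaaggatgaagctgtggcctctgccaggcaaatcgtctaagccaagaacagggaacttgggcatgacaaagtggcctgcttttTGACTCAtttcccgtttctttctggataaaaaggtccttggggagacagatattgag
This motif occurs in 7.81% of the promoters in the table. Of the AP-1 genes, Fos stood at 314, 324 and 541 CPM in cDC1 and Fosb at 22.5, 33.9 and 49.4 CPM. Both were higher in the KO, at log2 ratios of 0.78 (0.66 to 0.91) and 1.13 (0.68 to 1.60). The other AP-1 genes of the lists that could be compared were not past the rule in the KO, with Jun at 0.32, Jund at 0.41, Atf3 at 0.47, Batf3 at −0.18 and Junb, in the other direction, at −0.51. A match describes letters only, and binding was not measured.

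The 12 lowest ratios with GW5074 included both metallothioneins, genes of neutrophils and macrophages and 2 interferon-induced membrane protein genes. Mt2, which encodes a metal-binding protein induced by metals and glucocorticoids, stood at 51.0, 2.29 and 4.20 CPM. It was lower with GW5074 by a log2 ratio of −4.47 (−6.12 to −3.22) and in core cells by −4.48. Its partner Mt1 stood at 428, 111 and 162 CPM (−1.95, −2.16 to −1.75). The WT DMSO library was high alone for both genes. Arg1, the arginase of alternatively activated macrophages, stood at 84.5, 6.88 and 1.87 CPM, and Chil3 at 756, 122 and 83.5 CPM. Their GW5074 log2 ratios of −3.62 and −2.63 shrank to −1.68 and −1.54 in core cells, where Arg1 had too few UMIs to be called. The calprotectin genes S100a8 (610.4, 104 and 82.6 CPM) and S100a9 (354, 67.9 and 47.1 CPM) were lower by −2.55 (−2.76 to −2.35) and −2.38 (−2.64 to −2.13), and as low in core cells (−2.80 and −2.79). These 2 and Chil3 belong to the neutrophil and macrophage lists whose sums are given above, and their part in the result was not tested.

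Which cells gave the other 6 genes of the 12 lowest with GW5074 was not tested. The antiviral membrane protein genes Ifitm1 (136, 29.8 and 46.6 CPM) and Ifitm2 (301, 97.7 and 152 CPM) were lower by −2.19 (−2.59 to −1.81) and −1.62 (−1.85 to −1.41). The chemokine gene Ccl4 stood at 52.3, 11.9 and 12.1 CPM and was lower by −2.13 (−2.79 to −1.53). Few cells carried it, since 66 of its 158 WT DMSO UMIs came from 1 cell and 81.0% from 5 cells. The decoy receptor gene Il1r2, which takes up IL-1 without signalling, stood at 87.1, 32.6 and 18.2 CPM and was lower by −1.42 (−1.82 to −1.04). Wfdc21 (129, 34.9 and 27.1 CPM) and the glutathione reductase gene Gsr (102, 29.8 and 30.8 CPM) completed the lowest 12, at −1.89 and −1.77. In all 6 genes the WT DMSO library was the highest of the 3. All 6 were lower in core cells too, from −2.98 for Ifitm1 to −1.27 for Gsr. The sums of neutrophil and resident alveolar macrophage markers given above were also highest in WT DMSO, and the part of such cells was not tested.

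Among genes that reached 50 CPM in either library and 100 UMIs over both, from which the 12 lowest were also taken, ratios above 1 with GW5074 were smaller, the 12 highest lying between 0.77 and 0.99. Ifi27l2a, an interferon-induced gene, stood at 96.4, 192 and 152 CPM and had the highest ratio of these (0.99, 0.77 to 1.21). Pdgfb, which encodes a platelet-derived growth factor chain, stood at 39.1, 76.2 and 41.0 CPM and was higher by 0.96 (0.61 to 1.32), so the GW5074 library stood alone. The same order held for the potassium channel gene Kcnn4 (43.7, 75.2 and 48.0 CPM) and the protease-activated receptor gene F2rl2 (43.1, 78.0 and 53.2 CPM), at 0.78 and 0.86. The lipid chaperone gene Fabp5 (103, 178 and 135 CPM) and Gpnmb (38.7, 68.8 and 49.4 CPM), both also high in macrophages, were higher by 0.79 and 0.83, and by 1.24 and 1.69 in core cells. The sum of the monocyte-derived macrophage markers was also higher with GW5074 in core cells (above), as were the lipid carrier gene Apoe (1.17) and the lysosomal protease gene Ctsd (0.92), and the part of such cells was not tested. Hpgds, the prostaglandin D2 synthase gene, stood at 41.7, 74.3 and 84.0 CPM (0.83, 0.49 to 1.18). The others were Lars2, Fam102b, Airn, Cd36 and Vkorc1l1. Among co-stimulatory genes, 15 were compared, and Cd83, a maturation marker, was higher (95, 151 and 118 CPM, 0.67, 0.44 to 0.90). Cd274, which encodes the inhibitory ligand PD-L1, was lower (43.1, 22 and 14.5 CPM, −0.97, −1.48 to −0.48).

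A list of ERK target genes was read as well. Of 8 compared with GW5074, Spred1 (19.9, 33.5 and 28.5 CPM) and Phlda1 (21.2, 37.2 and 53.2 CPM) were higher, Ier3 (54.3, 23.9 and 21.0 CPM) was lower, and 5 were neither. In core cells Il1b was lower as well (−0.68). The list's median of 0.32 changed sign with other settings. Of 16 compared genes of cholesterol synthesis, Fdps (65.9, 104 and 99.4 CPM) and Idi1 (49.0, 75.2 and 50.4 CPM) were higher with GW5074, 15 had ratios above 1 and the median was 0.34. In core cells Sqle (0.64) and Nsdhl (0.61) were higher too. In the KO 1 of 15 was higher and 2 were lower, with a median of −0.11, and the higher gene, Fdps, was at 0.58 in core cells, just short of the rule.

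**Figure D2:**
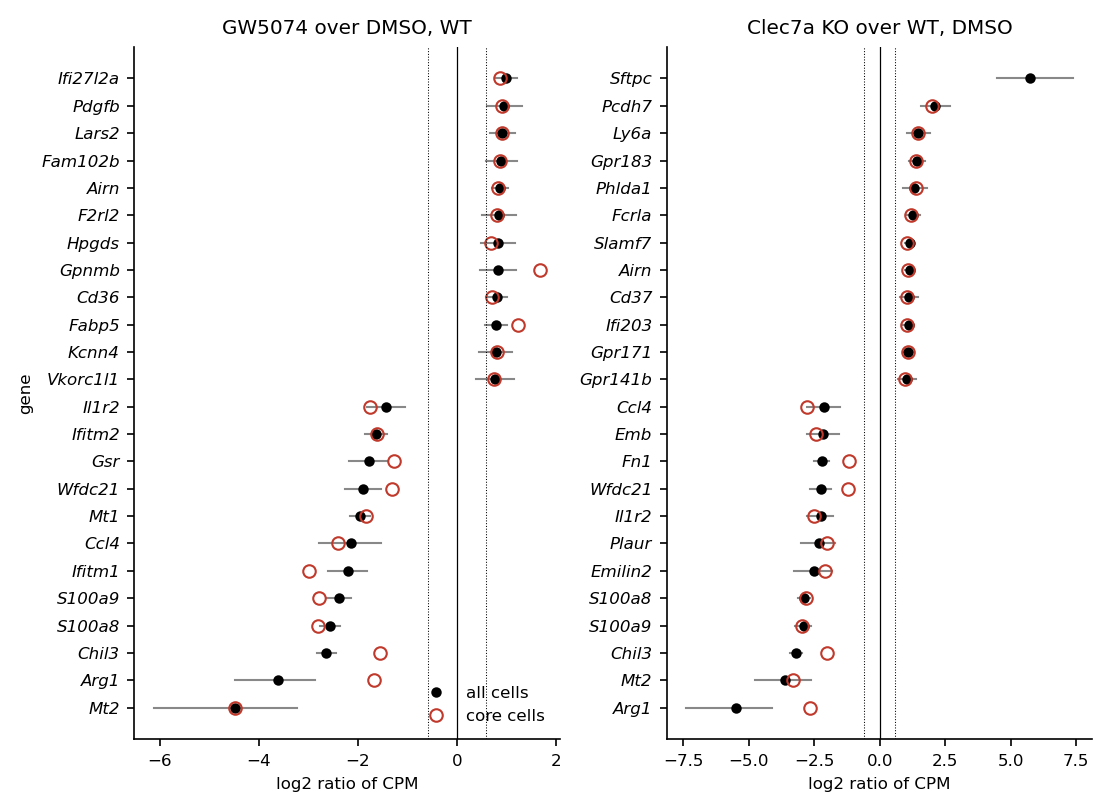
Log2 ratios of CPM in cDC1 for the 12 highest and 12 lowest genes of each comparison, all cells as filled points with counting intervals and core cells as open circles. Dotted lines mark the 1.5-fold size. Core cells lie nearer 0 for Arg1 and Chil3 in both panels (−1.68 and −1.54 with GW5074), while Mt2 and S100a8 keep their place. Sftpc in the KO panel has no core value.

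By count, the list of glucocorticoid- and metal-inducible genes held the most lower members in each comparison, though the lists differ in length. By share other lists held more. All 4 compared neutrophil markers were lower in both comparisons, with medians of −1.92 and −2.82. Of 6 resident alveolar macrophage markers 3 were lower with GW5074 and 5 in the KO, and of 6 interferon gamma genes 4 in the KO. Over all compared genes 3.24% were lower with GW5074 and 12.3% in the KO. In the glucocorticoid and metal list, 6 of 13 compared genes were lower with GW5074, with a median of −0.51. In the KO 7 of 12 were lower, with a median of −1.04. In core cells the counts were also 6 and 7, the medians −0.35 and −0.76, and 1 gene was higher with GW5074. Besides Mt1, Mt2 and Il1r2, the mTORC1 inhibitor gene Ddit4 stood at 27.8, 1.84 and 1.4 CPM, from 84, 4 and 3 UMIs, with log2 ratios of −3.92 (−5.83 to −2.51) and −4.31 (−6.62 to −2.72). Klf9, a transcription factor gene induced by the glucocorticoid receptor, stood at 35.8, 8.26 and 12.1 CPM (−2.11 and −1.56). Fkbp5, a co-chaperone of that receptor, stood at 157, 65.1 and 84.0 CPM (−1.27 and −0.91). Sgk1 was lower in the KO alone (95, 70.2 and 42.0 CPM, −1.18, −1.54 to −0.83). Tsc22d3, another target of the receptor, stood at 137, 133 and 167 CPM and Per1 at 38.4, 29.4 and 28.5 CPM, and neither passed the rule. The WT DMSO library was high alone for Ddit4, Klf9 and Fkbp5.

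The same genes were also read in the other cell sets. In cDC2, Ddit4 stood at 80.5, 5.23 and 0 CPM and Mt1 at 904, 180.4 and 307 CPM. In mature dendritic cells Ddit4 stood at 60.6, 7.44 and 12.3 CPM and Mt1 at 714, 391 and 403 CPM. In resident alveolar macrophages Il1r2 stood at 139, 5.15 and 4.49 CPM and Fkbp5 at 143, 52.9 and 110 CPM, while Mt1 stood at 833, 803 and 1159.6 CPM. For the cold-inducible RNA-binding protein genes WT DMSO was also the highest. In cDC1 Cirbp stood at 44.4, 18.4 and 13.1 CPM and Rbm3 at 57.6, 35.3 and 26.6 CPM, lower with GW5074 (−1.27 and −0.71, the latter −0.49 and not past the rule in core cells) and in the KO (−1.76 and −1.12), and in mature dendritic cells Cirbp stood at 128, 37.2 and 21.6 CPM. Differences of the animals, of sample handling and of the groups cannot be told apart with 1 pool a group.

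The Mt2 promoter (RefSeq, GRCm38.p6, chr8:94172368-94172667, plus strand) is shown because Mt2 had the lowest ratio with GW5074. Capitals mark the core of the metal response element, TGCACNC or TGCGCNC, searched on both strands.
Mt2: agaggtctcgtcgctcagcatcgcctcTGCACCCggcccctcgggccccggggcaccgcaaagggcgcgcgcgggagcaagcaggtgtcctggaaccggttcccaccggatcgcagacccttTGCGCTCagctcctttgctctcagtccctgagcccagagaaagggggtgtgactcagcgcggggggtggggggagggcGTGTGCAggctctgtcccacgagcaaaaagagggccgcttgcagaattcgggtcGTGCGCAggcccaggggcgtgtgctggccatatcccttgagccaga
It holds 4 matches, 223, 128 and 50 bases upstream and 4 downstream of the start. This short core occurs in 25.7% of promoters, and in 9 of the 14 promoters found for the 15 genes of the list. The full glucocorticoid response element, AGAACA and TGTTCT with any 3 bases between them, occurs in 0.00913% of promoters and in 1 of those 14, that of Sgk1.

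In the KO, the lowest ratios were again led by macrophage and neutrophil genes. Arg1 (−5.50, −7.39 to −4.13), Mt2 (−3.60), Chil3 (−3.18), S100a9 (−2.91) and S100a8 (−2.89) were followed by Emilin2 (50.3, 20.2 and 8.86 CPM, −2.51, −3.28 to −1.81). The urokinase receptor gene Plaur stood at 55.6, 27.5 and 11.2 CPM (−2.31, −3.0 to −1.69) and the fibronectin gene Fn1 at 260, 138 and 56.0 CPM (−2.21, −2.50 to −1.93). Il1r2, Wfdc21, Emb and Ccl4 completed the list, between −2.26 and −2.11, with the WT DMSO Ccl4 UMIs resting on the few cells given above. In core cells Chil3, Fn1 and Wfdc21 were still lower but at −2.02, −1.16 and −1.22, and Arg1 could not be called. The sums of the macrophage and neutrophil markers stand beside these values above, and their part in them was not tested.

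Of the 12 highest ratios in the KO, 6 belonged to genes with which the KO stood apart from both WT libraries. Gpr183, the oxysterol receptor that guides dendritic cell and B cell positioning, stood at 46.0, 57.8 and 123 CPM (1.42, 1.12 to 1.73). Ly6a, which encodes Sca-1 and responds to interferon, stood at 23.2, 22 and 64.4 CPM (1.47, 1.05 to 1.91), and Fcrla, an Fc receptor-like gene, at 63.3, 79.4 and 153 CPM (1.28, 1.02 to 1.54). The tetraspanin gene Cd37 (38.4, 48.2 and 83.0 CPM), the PYHIN gene Ifi203 (92.4, 112 and 198 CPM) and the receptor gene Gpr171 (116, 127 and 245 CPM) were higher by 1.11, 1.10 and 1.08. For these 6 genes the GW5074 ratio over WT DMSO was not past the rule. Over WT GW5074, the KO log2 ratios of Gpr183, Ly6a and Fcrla were 1.09 (0.78 to 1.41), 1.55 (1.06 to 2.05) and 0.95 (0.68 to 1.23).

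For other genes the GW5074 library lay between. The protocadherin gene Pcdh7 stood at 12.3, 40.4 and 52.7 CPM, with a KO log2 ratio of 2.1 (1.56 to 2.68) and a GW5074 ratio of 1.72 (1.15 to 2.32). Slamf7, a homophilic receptor of the SLAM family, stood at 157, 243 and 348 CPM (1.15, 0.98 to 1.32, and 0.63, 0.45 to 0.81). After thinning to 1000 UMIs a Slamf7 UMI was found in 14.4%, 19.8% and 29.4% of cDC1, against 4.08% to 4.63% of resident alveolar macrophages. T cells held one in 2.94%, 10% and 7.69%, from 102, 20 and 65 thinned cells. Phlda1 and Gpr141b (39.1, 59.6 and 80.7 CPM) had KO ratios of 1.33 and 1.05. Airn, a long non-coding RNA, stood at 166, 304 and 365 CPM (1.14, 0.97 to 1.30). It overlaps Igf2r on the opposite strand, and whether the counting used strand is not given in the sources used here, so its level is uncertain. Sftpc, the surfactant gene of alveolar type 2 epithelium, had the highest KO ratio, from 5 UMIs in WT DMSO and 188 in the KO. Of the 188, 187 came from 1 cell, and KO core cells held 0, so it is no difference of cDC1 at large.

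Antigen presentation genes were read by MHC class. In the KO, of 15 compared class II genes 2 were higher, 13 had ratios above 1 and the median was 0.27. Cd74, the invariant chain, stood at 12063, 13021 and 19424 CPM (0.69, 0.67 to 0.71) and the peptide exchange gene H2-DMb1 at 464, 577 and 848 CPM (0.87, 0.77 to 0.97). H2-Aa stood at 6640.2, 7041 and 9907 CPM, H2-Ab1 at 6797, 7303 and 8842 CPM and H2-Eb1 at 6153, 6447 and 8384 CPM, at ratios of 0.58, 0.38 and 0.45 that did not reach 1.5-fold. With GW5074 0 of 15 passed the rule in either direction, with a median of 0.11. Of 27 class I and cross-presentation genes 4 were lower in the KO, a share near the 12.3% of all compared genes, and the median was −0.06. H2-T23, which encodes the non-classical molecule Qa-1, a ligand of NKG2A on NK and CD8 T cells, stood at 347, 364 and 128 CPM (−1.43, −1.63 to −1.24), with the KO below both WT libraries. The peptide transporter gene Tap2 (137, 147 and 90.03 CPM), the translocon gene Sec61a1 (82.1, 90.4 and 49.4 CPM) and the GTPase gene Rac2 (37.1, 22 and 20.1 CPM) were lower by −0.61, −0.73 and −0.89. B2m stood at 1470.1, 1421 and 2056 CPM (0.48), which is under 1.5-fold. With GW5074 Rac2 alone of the 27 was lower (−0.75).

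H2-T23 and Cd74 differed beyond cDC1 as well. H2-T23 had KO log2 ratios of −0.73 (−1.18 to −0.29) in cDC2, −1.43 (−1.55 to −1.32) in mature dendritic cells, −0.99 (−1.11 to −0.88) in resident alveolar macrophages and −1.93 (−2.86 to −1.11) in T cells. It belongs to a family of close copies in the MHC region on chromosome 17, so its counts are uncertain. Cd74 had KO ratios of 0.77 in cDC2, 0.89 in mature dendritic cells and 0.18 in resident alveolar macrophages.

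**Figure D3:**
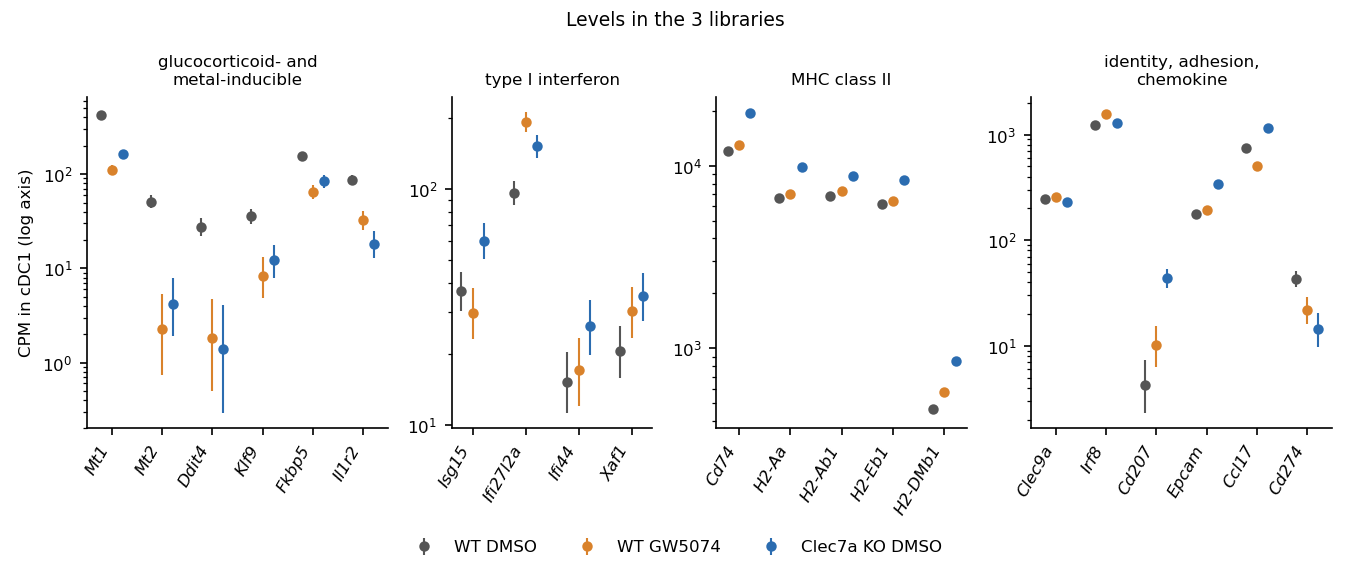
Levels in cDC1 (CPM, log axis) of members of 4 gene groups in the 3 libraries, with exact Poisson 95% intervals. Grey points (WT DMSO) stand highest for the 6 glucocorticoid- and metal-inducible genes shown, which are those lower in both comparisons. Tsc22d3 of that list, highest in the KO, is not shown. Blue points (KO) stand highest for the 5 class II genes shown and for Cd207 (43.8 CPM) and Epcam (337 CPM).

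The pathway below Dectin-1 was read from 10 compared genes. Clec7a aside, Syk, the kinase that binds the receptor's tail, stood at 145, 134 and 83.5 CPM, Prkcd at 352, 332 and 198 CPM and Traf6 at 39.4, 32.6 and 24.7 CPM. These 3 were lower in the KO by −0.80 (−1.06 to −0.55), −0.83 (−1.0 to −0.67) and −0.67 (−1.17 to −0.19), 6 were neither, and the list's median was −0.34. Of all genes compared in the KO 12.3% were lower and 3.83% higher, with a median of −0.11. Whether this list and those below in this paragraph depart from these shares was not tested. With GW5074 0 of 10 passed the rule. Of 13 compared pattern sensors and adaptors 4 were lower in the KO, namely Tlr2 (31.8, 26.1 and 16.8 CPM), Tlr4 (20.9, 14.7 and 7.93 CPM), Tlr12 (30.8, 23.9 and 10.3 CPM) and Irf3 (39.1, 42.2 and 25.7 CPM). Tlr12, a profilin sensor of mouse cDC1, had the lowest ratio (−1.59, −2.33 to −0.90). In core cells Tlr2 (−0.64) was not past the rule and Tlr4 too low to compare, while Unc93b1, which escorts endosomal Toll-like receptors, was lower at −0.60. Of C-type lectin and scavenger genes, 15 were compared in the KO. Cd207 and Cd36 were higher and Clec4n, Clec4d, Clec4a2, Mrc1 and Mertk lower, and in core cells Mrc1, Mertk and Clec10a (−0.67) were lower. In WT, 14 were compared with GW5074, 1 was higher and 4 lower, and the ratio of 1 of these, Mertk, was −0.73 in all cDC1 and −0.01 in core cells.

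Interferon-inducible genes were read by interferon type. Of 14 compared type I genes 4 were higher in the KO, 0 lower, 12 had ratios above 1 and the median was 0.49. Isg15, a ubiquitin-like modifier, stood at 36.8, 29.8 and 60.2 CPM (0.71, 0.33 to 1.09), and Ifi27l2a, Ifi44 (15.2, 17.0 and 26.1 CPM) and Xaf1 (20.5, 30.3 and 35.0 CPM) were higher by 0.65, 0.78 and 0.77. With GW5074 Ifi27l2a was higher and Ifit2 (20.2, 9.63 and 27.5 CPM) and Ifitm3 (103, 53.7 and 90.03 CPM) were lower, of 13 compared. Of 6 compared genes of the interferon gamma list 4 were lower in the KO, where 12.3% of all compared genes were lower and 3.83% higher. Irf1 (28.2, 25.2 and 17.3 CPM), the GTPase gene Irgm1 (36.4, 31.2 and 21.0 CPM), the feedback inhibitor gene Socs3 (65.6, 62.9 and 34.1 CPM) and Cd274 had ratios of −0.71, −0.80, −0.95 and −1.57. Other members were too low to compare.

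The Isg15 promoter (RefSeq, GRCm38.p6, chr4:156200769-156201068, minus strand) is shown for comparison with those of Ifi205 and Ifi211 above. Capitals again mark GAAA, any 2 bases and GAAA, on either strand.
Isg15: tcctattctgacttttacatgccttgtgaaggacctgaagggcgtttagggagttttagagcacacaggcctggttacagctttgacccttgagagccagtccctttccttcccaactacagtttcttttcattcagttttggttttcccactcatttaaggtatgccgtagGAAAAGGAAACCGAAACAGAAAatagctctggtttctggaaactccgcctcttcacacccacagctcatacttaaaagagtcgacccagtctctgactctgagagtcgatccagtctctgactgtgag
Its 3 matches overlap and begin 78, 72 and 66 bases upstream. The core was found in 11 of the 19 promoters available for the 25 type I genes, against 3.44% of all promoters.

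Chemokine and adhesion genes differed by member. Ccl17, a ligand of CCR4 on T cells, stood at 748, 506 and 1154 CPM. It was higher in the KO (0.63, 0.54 to 0.71), and the GW5074 ratio of −0.57 (−0.67 to −0.46) fell short of the rule, though in core cells it was past it at −0.73. Ccl4, Ccl6 (314, 216 and 170 CPM) and Ccr1 were lower in the KO, of 11 compared, and the Ccl6 ratio of −0.88 was −0.06 in core cells. With GW5074 Ccl4, which few cells carried, Ccl5 and Ccr1 were lower, of 10 compared, and in core cells Ccl5 (−0.61) was not past the rule. Epcam, the epithelial adhesion molecule that Langerhans cells and some dendritic cells also carry, stood at 177, 192 and 337 CPM and was higher in the KO (0.93, 0.76 to 1.09). A UMI was found in 40.7%, 32.1% and 58.7% of cDC1, and after thinning in 14.7%, 15.4% and 24.7%, against 0.418%, 1.17% and 1.10% of resident alveolar macrophages. T cells held an Epcam UMI in 0%, 10% and 3.08%, from 102, 20 and 65 thinned cells. The 7 epithelial markers, which include Epcam and Sftpc, summed to 234, 243 and 477 CPM, and to 229, 243 and 370 CPM in core cells, where Krt8 and Krt18 were at 0 in the KO. The myeloid integrin gene Itgam (41.7, 16.1 and 12.6 CPM) and the inhibitory receptor gene Sirpa (99.0, 88.5 and 38.2 CPM) were lower, also in core cells, where Itgax (−0.63) and Cdh1 (−0.71) were lower as well. Of 14 growth and survival genes, the stem cell factor receptor gene Kit (160, 166 and 105 CPM) and the death gene Bcl2l11 (164, 143 and 83.5 CPM) were lower in the KO by −0.61 and −0.98, again a share near the 12.3% of all genes. The inflammatory cytokine gene Il1b was lower as well (130, 88.1 and 46.6 CPM, −1.48, −1.81 to −1.16).

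Respiratory chain, lysosomal and stress genes followed. Of 26 respiratory chain genes 4 were lower and 1 higher in the KO, but 2 had ratios above 1 and the median was −0.43, against −0.11 for all genes. In core cells 2 of the 26 were lower, with Ndufa1 (−0.54) and Cox4i1 (−0.56) no longer past the rule. With GW5074 0 of 26 passed and the median was −0.15. Of 21 lysosomal genes 5 were lower in the KO, where 12.3% of all compared genes were lower and 3.83% higher. Psap, the precursor of the saposins, stood at 4631, 5258 and 2586 CPM (−0.84, −0.89 to −0.80) and was lower in core cells too (−0.88). Ctsd and Lamp1 were not past the rule there (−0.14 and −0.35). Of 10 heat shock and cold genes, Hsp90aa1 (158, 139 and 266 CPM) and Hsp90ab1 (1122, 1079 and 1708 CPM) were higher in the KO by 0.75 and 0.61. Of 16 immediate early genes, Fos, Fosb and Btg2 (347, 349 and 672 CPM) were higher and Cebpb (51.0, 43.1 and 24.7 CPM) lower. Among genes that joined the named set once core cells alone were ranked, Vim (1025, 1296.5 and 2059 CPM) and the G1 cyclin gene Ccnd3 (223, 232 and 434 CPM) were higher by 1.01 and 0.96.

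**Figure D4:**
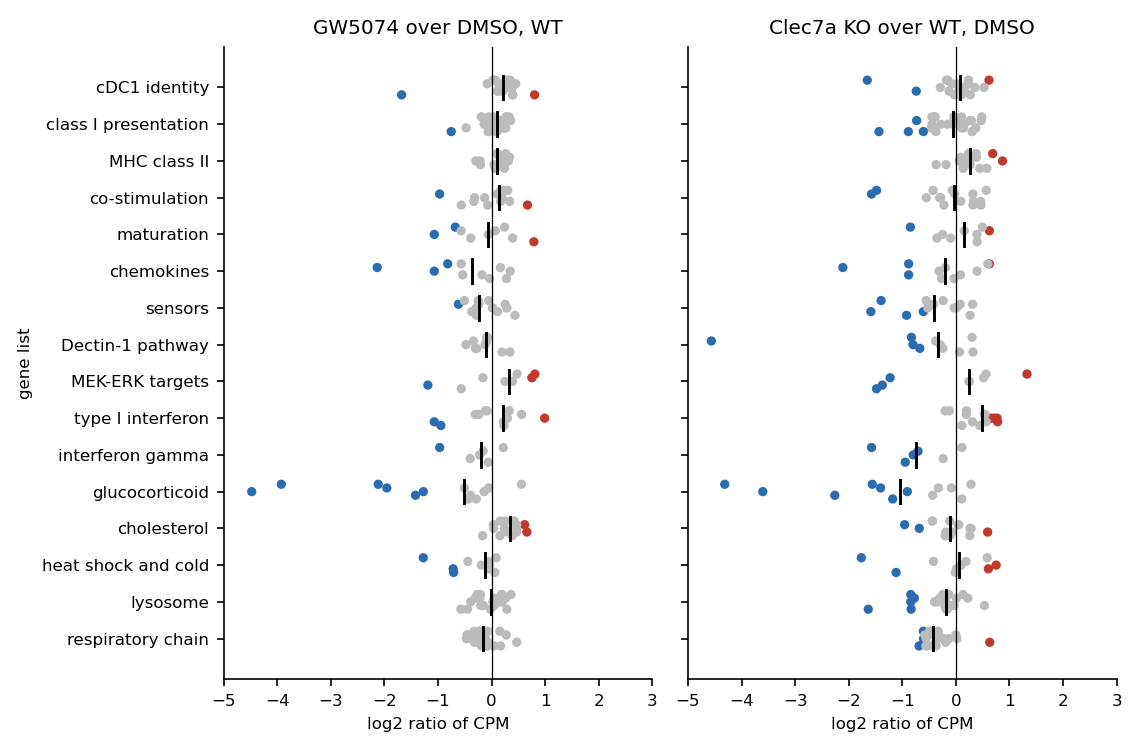
Log2 ratios of CPM for the compared members of 16 gene lists, 1 point a gene, with GW5074 over DMSO on the left and KO over WT on the right. Red points are higher and blue points lower by the 1.5-fold rule, grey points neither, and black bars are list medians. Cd207 in the KO panel lies beyond the right end of the axis and is not drawn. The glucocorticoid row reaches lowest in both panels apart from Clec7a, and the type I interferon row of the KO lies mostly above 0 with a median of 0.49.

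Cells of a library were also compared with each other. At least 3 UMIs of cycling genes were found in 20.5%, 10.8% and 12.6% of cDC1, at unequal depths. In core cells thinned to 1000 UMIs the shares were 6.39% (4.59 to 8.64), 6.53% (4.92 to 8.48) and 5.31% (3.63 to 7.45), so the difference in these shares was within counting error once depths were equal. The G2 and M phase markers alone gave 3.28%, 3.64% and 3.42%. Levels of the cycling genes were compared as lists too. Of 9 S phase genes compared in the KO, 2 were lower and 1 had a ratio above 1. Their median was −0.48 (−0.41 in core cells), against −0.11 for all genes. Of 8 G2 and M phase genes 1 was lower in the KO, with a median of −0.16. With GW5074 the 2 medians were 0.04 and 0.12. Cycling core cells of WT DMSO held Clec9a at 267 CPM (229.8 to 308.9) against 269.7 CPM in the others. In the KO the cycling cells held 290 CPM (234 to 356) against 230 CPM (208 to 254) in the others, and with GW5074 278 CPM (222 to 343) against 267 CPM (243 to 292). Itgae was at 940 CPM (835 to 1054) in cycling GW5074 cells against 1194 CPM (1144 to 1247), while the intervals of its WT DMSO and KO values overlapped. Clec9a and Itgae are among the genes that chose these cells, and cycling cells were picked here on unthinned counts. The choice of cells and their depth therefore enter these levels, and their part was not tested.

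Ccl17 was one of the most unevenly spread genes. Its variance over its mean in thinned cells was 5.59, 6.37 and 7.59, against a median of 1.03 over genes in each library. S100a8 (11.1, 8.77 and 6.08), the abundant cystatin gene Cst3 (7.02, 3.68 and 3.99) and S100a4 (3.83, 3.69 and 3.42) were also uneven. At least 2 Ccl17 UMIs were found in 76 of 610 thinned core cells with DMSO (12.5%, 9.94 to 15.3), in 66 of 796 with GW5074 (8.29%, 6.47 to 10.4) and in 125 of 584 in the KO (21.4%, 18.1 to 25). These cells held 83.0%, 80.2% and 89.8% of the Ccl17 UMIs, and the KO share lay above both WT intervals. Resident alveolar macrophages reached 2 Ccl17 UMIs in 0.574%, 0.964% and 1.15% of thinned cells, and T cells in 4 of 102, 5 of 20 and 2 of 65. With GW5074 the T cell share, from few cells, was thus above that of core cDC1. Ccl17 is also among the genes that chose cDC2, and doublets were not called. The part of other cells in the Ccl17 counts was not tested. The core cells with at least 2 were compared with core cells without a Ccl17 UMI in the same library, a choice made after the values were seen. Of 1451 genes, 40 (2.76%), 56 (3.86%) and 46 (3.17%) were higher in the Ccl17 cells, and 4 were higher in all 3 libraries. The calcium-binding protein gene S100a4 had log2 ratios of 2.12, 1.13 and 1.28, the proton pump subunit gene Atp6v0c 1.54, 0.98 and 0.97, the survival gene Bcl2a1b 1.04, 0.75 and 0.80, and the cell cycle inhibitor gene Cdkn1a 0.84, 0.96 and 0.73. No gene was lower in all 3, though 49, 29 and 44 genes were lower in a single library's comparison.

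**Figure D5:**
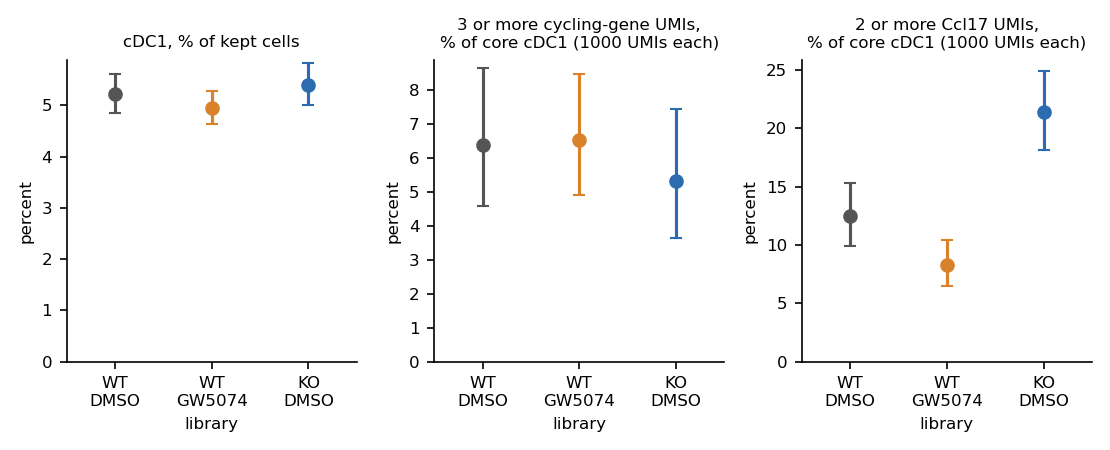
Shares in percent with exact binomial 95% intervals for the 3 libraries. From left to right they are cDC1 among kept cells (4.95% to 5.4%), core cDC1 with at least 3 cycling-gene UMIs after thinning (5.31% to 6.53%) and core cDC1 with at least 2 Ccl17 UMIs after thinning, where the KO (21.4%) stands above the WT libraries.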

How the data were processed

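Per the labels' protocols, lavage cells sorted for CD11b or CD11c went through droplet 3′ library preparation with cell barcodes and UMIs. The authors deposited raw UMI counts per gene and cell barcode, as whole numbers, for 32286 features. Cell Ranger 2.1.1 and the mm10 build are named in the submitters' processing notes. Every deposited barcode held at least 500 UMIs, so low-RNA barcodes are missing.

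Barcodes below 200 genes or above 20% mitochondrial UMIs were dropped. UMIs were summed over the cDC1 of a library and scaled to CPM. Ratios carry exact conditional binomial intervals, levels exact Poisson intervals and shares exact Clopper-Pearson intervals. These cover counting error only, and with 1 library a group no p-value was computed. Doublets were not called, and cells with T or B cell genes were left out by the rule. The comparison sets were chosen on marker UMIs in the same way, with at least 3 UMIs over Cd209a, Mgl2, Clec10a, Clec4a4, Ccl17 and Tnip3 for cDC2, and over Ccr7, Fscn1 and Ccl22 for mature dendritic cells. So levels of those genes in those sets follow from the choice. The cDC2 and resident alveolar macrophage sets also left out cells that reached the cDC1 marker minimum. Levels of the cDC1 markers, and of genes that go with them, are thus partly set by the choice there. The marker genes that chose the resident alveolar macrophage and T cell sets are not listed here. Thinning drew 1000 UMIs from each cell and left out shallower cells.

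Named genes were the 12 highest and 12 lowest ratios past the 1.5-fold rule among genes that reached 50 CPM in either library and 100 UMIs in sum. Mitochondrial, ribosomal, predicted, immune receptor, haemoglobin and sex-linked genes and those of the cell rule were left out. List members and the 20 leading genes were also eligible. The members, lists and rules were chosen with earlier results of these data known. Which list members the text gives, and the genes named from core cells, was decided with their values in view.

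The ratio and call code was tested on simulated data. Python 3.11.15, numpy 2.4.6, scipy 1.17.1, pandas 2.3.3 and matplotlib 3.10.9 were used. Gene positions come from GENCODE M21, which held 32236 of the features, and promoters from RefSeq.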

Additional observations from a re-analysis of the deposited data

How the results depend on the processing

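Settings were changed singly, and the core cells and the minimum of 8 marker UMIs were added after seeing the data. No paired analysis was possible because each group is 1 library. The share ratio followed the rule and the denominator. For GW5074 it was −0.27 with at least 2 marker UMIs, −0.25 with a stricter filter (500 genes, 10% mitochondrial UMIs), 0.088 without cycling cells, 0.65 without cells holding macrophage or neutrophil UMIs and 0.55 among cells low in Lyz2 without neutrophil UMIs. For the KO the ratio was −0.14 with 2 marker UMIs, −0.12 with the stricter filter, −0.20 with Lyz2 under 1%, −0.27 after thinning to 1000 UMIs, 0.77 without cells holding macrophage or neutrophil UMIs and 0.62 among cells low in Lyz2. Removing the cells with macrophage or neutrophil UMIs takes more cells from the WT DMSO library by construction, since 47.9% of its cDC1 held them.

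Counts of genes higher with GW5074 became 194 without those cells, 37 at 50 CPM and 245 with no low-count filter. Counts of genes lower became 315 with 2 marker UMIs, 127 with 8, 137 after thinning, 70 at 50 CPM and 454 with no filter. In the KO the higher count became 139 at 50 CPM and 389 with no filter, and the lower count 366 after thinning, 290 at 50 CPM and 1304 with no filter. Fewer UMIs or genes enter at 50 CPM and after thinning.

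Some directions reversed. Without cells holding macrophage or neutrophil UMIs, which removes cells by Chil3 among others, the GW5074 log2 ratios were 1.02 for Chil3, 0.45 for Wfdc21, 0.96 for Mertk, 0.29 for Mrc1 and 0.53 for Clec4a2. The KO ratios were 0.84 for Chil3, 0.89 for Wfdc21, 0.57 for Ccl6, 0.42 for Clec4a2, 0.057 for Clec4n, 0.37 for Ctsd, 0.083 for Mertk, 0.33 for Birc5 and 0.35 for Rrm1. With at least 8 marker UMIs the GW5074 ratios were 0.16 for Clec4a2, 0.0031 for Mertk and 0.25 for Mrc1, and the KO ratios 0.54 for Ccl6 and 0.051 for Clec4a2. With Lyz2 under 0.2% Clec4a2 was at 0.19 with GW5074 and Ccl6 at 0.059 in the KO. With GW5074, the chemokine median was 0.034 at 8 marker UMIs and 0.059 after thinning, and the ERK target median −0.35 after thinning and −0.16 at 50 CPM. The cause of these changes was not tested.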
